A study of Mus musculus with 9 samples.

Results

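The genes described here are the collagens, laminins and integrins of the mouse olfactory bulb, the chains of the extracellular matrix of vessels and meninges and the receptors that hold cells to it. Rows of the deposited table were taken where the symbol had the current form of a collagen alpha chain (Col), laminin chain (Lama, Lamb, Lamc) or integrin subunit (Itga, Itgb) name, which left out 2 laminin rows under older symbols, and the 48 rows whose average over the 9 mice reached 1 RPKM (reads scaled to transcript length and library size) were tested. They stood among 80 matching rows, and among 12780 genes of 27497 that reached the same level. By family, 24 of 38 collagen rows, 7 of 9 laminin rows and 14 of 26 integrin rows passed. The other 3 of the 48, of 7 such rows, match by name and encode no chain: Col4a3bp, a ceramide transfer protein, Itgb1bp1, which binds the tail of integrin beta 1, and Itgbl1, an integrin-like protein with EGF repeats.

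The study asked how transcripts of the bulb respond to odor in the living animal. It used 9 adult C57/BL6 mice of 6 to 8 weeks or older, 3 in each of 3 groups, and the labels name no engineered allele in any of them. The clean air group was kept in carbon-filtered air. The 30 min mice were killed at the end of 30 min with a mixture of odorants, and the 120 min mice received the same 30 min of odor followed by 90 min of clean air. Olfactory bulbs were dissected, and polyadenylated RNA was sequenced from each mouse separately. The labels do not say whether meninges were stripped from the bulbs, nor which odorants were used.

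Collagens are triple helices of 3 alpha chains. Fibrillar collagens form the cables of connective tissue, collagen IV forms the sheet of every basement membrane, and FACIT collagens (fibril-associated collagens with interrupted triple helices) decorate the fibrils. Laminins are crosses of 1 alpha, 1 beta and 1 gamma chain that start the assembly of a basement membrane. Integrins are pairs of 1 alpha and 1 beta subunit that bind these proteins from the cell surface. In brain this matrix lies mainly around vessels and in the meninges, and it is made by endothelial cells, pericytes, smooth muscle, fibroblasts and astrocytes. In whole tissue, fewer cells of a type and less RNA per cell cannot be told apart.

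Both major chains of collagen IV are read from 1 stretch of chromosome 8, in opposite directions, and their promoter windows are printed because their levels moved together from mouse to mouse, as given with the partner chains. The part of the shared stretch in those levels was not tested. RefSeq (GRCm38.p6) places the Col4a2 window, 250 bases before to 50 after the start, on the plus strand at chr8:11312555-11312854 and the Col4a1 window on the minus strand at chr8:11312777-11313076. The windows share 78 bases and the annotated 5′ ends overlap by 22 bases, so with no strand rule stated for the counting, reads from that overlap cannot be told apart. The overlap is short beside reference transcripts of 6615 bases for Col4a1 and 6450 for Col4a2. Capitals mark the GC box (GGGCGG) and the CCAAT box (CCAAT) on either strand.
Col4a2: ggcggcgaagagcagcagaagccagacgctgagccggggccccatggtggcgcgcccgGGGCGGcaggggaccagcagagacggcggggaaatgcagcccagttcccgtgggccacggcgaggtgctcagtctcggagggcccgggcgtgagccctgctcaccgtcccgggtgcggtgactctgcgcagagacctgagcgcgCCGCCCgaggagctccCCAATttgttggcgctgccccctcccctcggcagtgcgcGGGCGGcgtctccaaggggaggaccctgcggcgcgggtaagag
Col4a1: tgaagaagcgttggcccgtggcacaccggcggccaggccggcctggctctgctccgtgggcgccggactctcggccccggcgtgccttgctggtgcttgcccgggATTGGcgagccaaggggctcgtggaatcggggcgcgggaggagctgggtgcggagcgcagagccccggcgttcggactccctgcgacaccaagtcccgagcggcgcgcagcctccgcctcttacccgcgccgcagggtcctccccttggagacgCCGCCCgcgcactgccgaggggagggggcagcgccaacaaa
The Col4a2 window held 3 GC boxes and 1 CCAAT box at 73.7% GC, and the Col4a1 window held 1 of each at 74.0% GC. Among 32851 RefSeq windows of the same length, 35.7% held a GC box and 37.4% a CCAAT box. Those windows were not limited to genes that passed the level filter, as the 48 genes were. No share over the tested genes was taken, so a difference from these shares is not particular to the set. Of the 48 genes, 34 had a window in the table, and 24 of these held a GC box, in 26 (70.3%) of their 37 windows. The CCAAT box was in windows of 12 of the 34 genes, and the cyclic AMP response element (TGACGTCA), which 1.8% of all windows held, was in that of Col24a1. The TATA box (TATAAA) stood in the windows of Col11a2 and Col3a1, against 13.6% of all windows, and the AP-1 site (TGANTCA) in those of Col6a1 and Itga3, against 7.8%. A match of letters is a description and shows no binding.

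The libraries differed in depth. The steps between low RPKM values gave estimates of 10500000, 22200000 and 29900000 counted reads or read pairs for clean air mice 1, 2 and 3, of 8800000, 28800000 and 17400000 at 30 min, and of 9840000, 24100000 and 7140000 at 120 min. At these depths 3 reads on a transcript of 1 kb are worth 0.1 to 0.42 RPKM. The tissue label was checked against markers: all 12 markers of bulb neurons passed the level filter, at a summed 2537 to 2918 RPKM per mouse. All 8 leukocyte markers had a mean under 1 RPKM, and of 5 choroid plexus markers only Ttr reached it.

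Col6a1, a chain of the beaded filament collagen VI that surrounds vessels, had the highest level of the set at a mean of 72.6 RPKM over the 9 mice. The collagen IV chains Col4a1 and Col4a2 followed at 21.4 and 21.04 RPKM, ahead of the RGD-binding integrin Itgav at 19.5, the laminin chain Lamb2 at 18.7 and the transmembrane collagen Col23a1 at 17.9. Differences between neighbours in this order were small beside the spread between mice: Col4a1 ranged from 18.86 to 25.12 RPKM and Col4a2 from 15.8 to 25.89. Col6a1, in contrast, ranged from 58.14 to 90.58 RPKM and overlapped no other member. Next came Itgb5 at 15.4, Itgb1 at 13.1, Col16a1 at 11.6, Itgb1bp1 at 11.4, Col1a1 at 10.5 and Col9a2 at 10.3 RPKM. The main integrin beta subunits of the bulb by level were thus Itgb5 and Itgb1, and the main alpha subunit was Itgav.

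All 11 fibrillar collagen rows passed the level filter, while only 3 of 6 collagen IV rows and 2 of 7 leukocyte integrin rows did. Just above the filter stood Itgbl1 at 1.0022 and the collagen receptor Itga1 at 1.0533 RPKM. Just below it stood Itga9 at 0.9978, Col9a1 at 0.7611 and Col25a1 at 0.7078 RPKM. The laminin alpha chain Lama1, which lies in the pial basement membrane, had a mean of 0.62 RPKM. The collagen VI chain Col6a3 had 0.47 RPKM beside 72.6 for Col6a1, and Itgb6 was listed at 0 in every mouse. The beta 1 laminin chain, 1 of the 2 left out for an older symbol (Lamb1-1), stood at a mean of 3.59 RPKM.

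**Figure D1:**
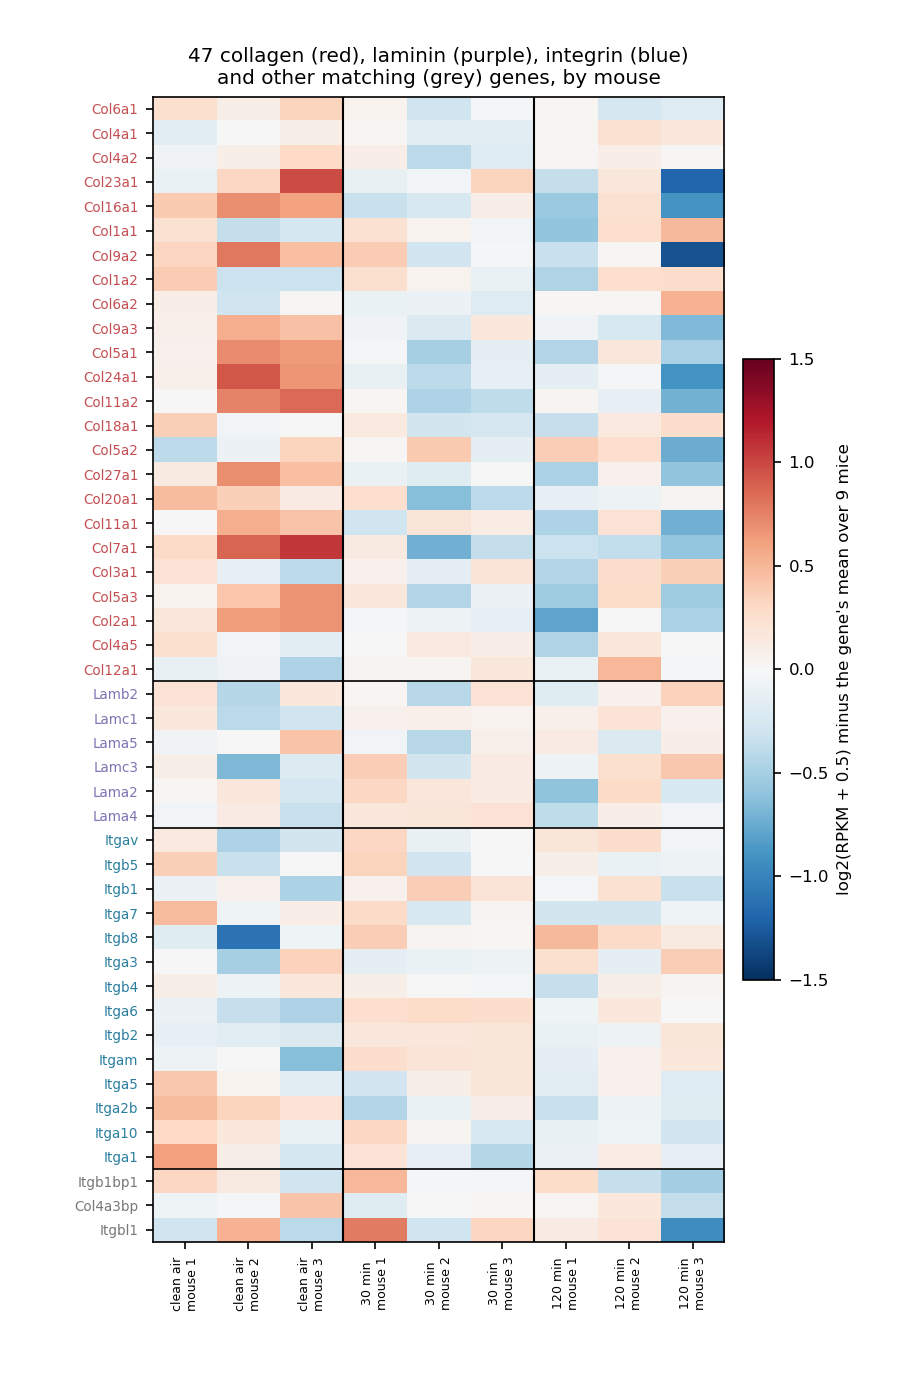
Heat map of 47 of the 48 genes (rows, by family and then by mean level) in the 9 mice (columns); colour is log2(RPKM + 0.5) minus the gene's mean over all 9 mice. A block of collagens such as Col7a1, Col24a1 and Col11a2 is red in clean air mice 2 and 3, while clean air mouse 1 lies nearer to the exposed mice.

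No collagen, laminin or integrin passed an adjusted p of 0.05 in limma (Benjamini-Hochberg over all 12780 genes) in any comparison. Genes that did were rare in the whole table: 0.141% at 30 min against clean air, 0.0861% at 120 min against clean air, 0.0782% at 120 min against 30 min and 0.164% over the 3 groups. Among the 48 genes the lowest adjusted p was 0.731 at 30 min, 0.339 at 120 min, 0.999 between the exposed groups and 0.566 over the 3 groups. An adjusted p above the threshold does not show that a gene was unchanged.

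The direction of the values differed by family. The 24 collagens had a median log2 difference from clean air of -0.33 at 30 min and -0.51 at 120 min, against 0.08 and 0.03 over all tested genes, and 18 and 17 of the 24 had a lower mean than in clean air. The 14 integrins were split 7 lower and 7 higher at both times, with medians of -0.02 and 0.04. The 7 laminins had medians of 0.22 and -0.02. The full set of 48 had medians of -0.07 at 30 min, -0.13 at 120 min and -0.09 for 120 min against 30 min, where all genes had -0.03.

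Unadjusted p-values were counted against the same count over all genes. In limma 6 of the 48 genes were lower at 30 min at an unadjusted p under 0.05, against 2.3% of all genes, and 2 were higher, against 3.62%. At 120 min 12 were lower, against 3.85% of all genes, and 1 was higher, against 5.72%. All 6 and all 12 of the lower genes were collagens. For 120 min against 30 min the count was 0 in both directions, where 1.99% of all genes were lower and 1.38% higher, and over the 3 groups it was 11, against 6.64%. With both exposed groups pooled, a comparison added after the data were seen, 11 genes were lower and 2 higher, against 3.46% and 6.16% of all genes, and 0 of the 48 passed adjustment where 0.125% of all genes did.

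These counts rested in part on single mice. The same counts over all genes were not taken with a mouse left out, so the shifts below have no background. At 30 min the 8 genes in both directions became 3 without clean air mouse 2, 3 without 30 min mouse 2, 5 without clean air mouse 3 and 12 without clean air mouse 1. At 120 min the 13 became 8 without 120 min mouse 3 and stayed between 9 and 17 without any other mouse. Over the 3 groups the 11 became 2 without clean air mouse 2 and 4 without clean air mouse 3. For 120 min against 30 min the 0 became 4 without 120 min mouse 2 and 1 without 120 min mouse 1, and for the exposed mice together the 13 became 8 without clean air mouse 2.

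Complete separation of the groups was counted in the same way, and at 30 min it was less one-sided than the unadjusted p-values. All 3 mice at 30 min lay below all 3 clean air mice in 8 of the 48 genes, against 4.08% of all genes, and above them in 7, against 7.29%. At 120 min 10 genes lay wholly below clean air, against 5.27%, and 3 wholly above, against 7.86%. Between the exposed groups 3 genes were wholly lower at 120 min, against 5.66%, and 1 wholly higher, Col6a2, against 4.99%. In 7 genes all 6 exposed mice lay below all clean air mice, against 1.59% of all genes: Col6a1, Col16a1, Col24a1, Col27a1, Col7a1, Col2a1 and the platelet integrin Itga2b. In 3 genes, Itgb8, Itga6 and Itgb2, all 6 lay above, against 3.09%.

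**Figure D2:**
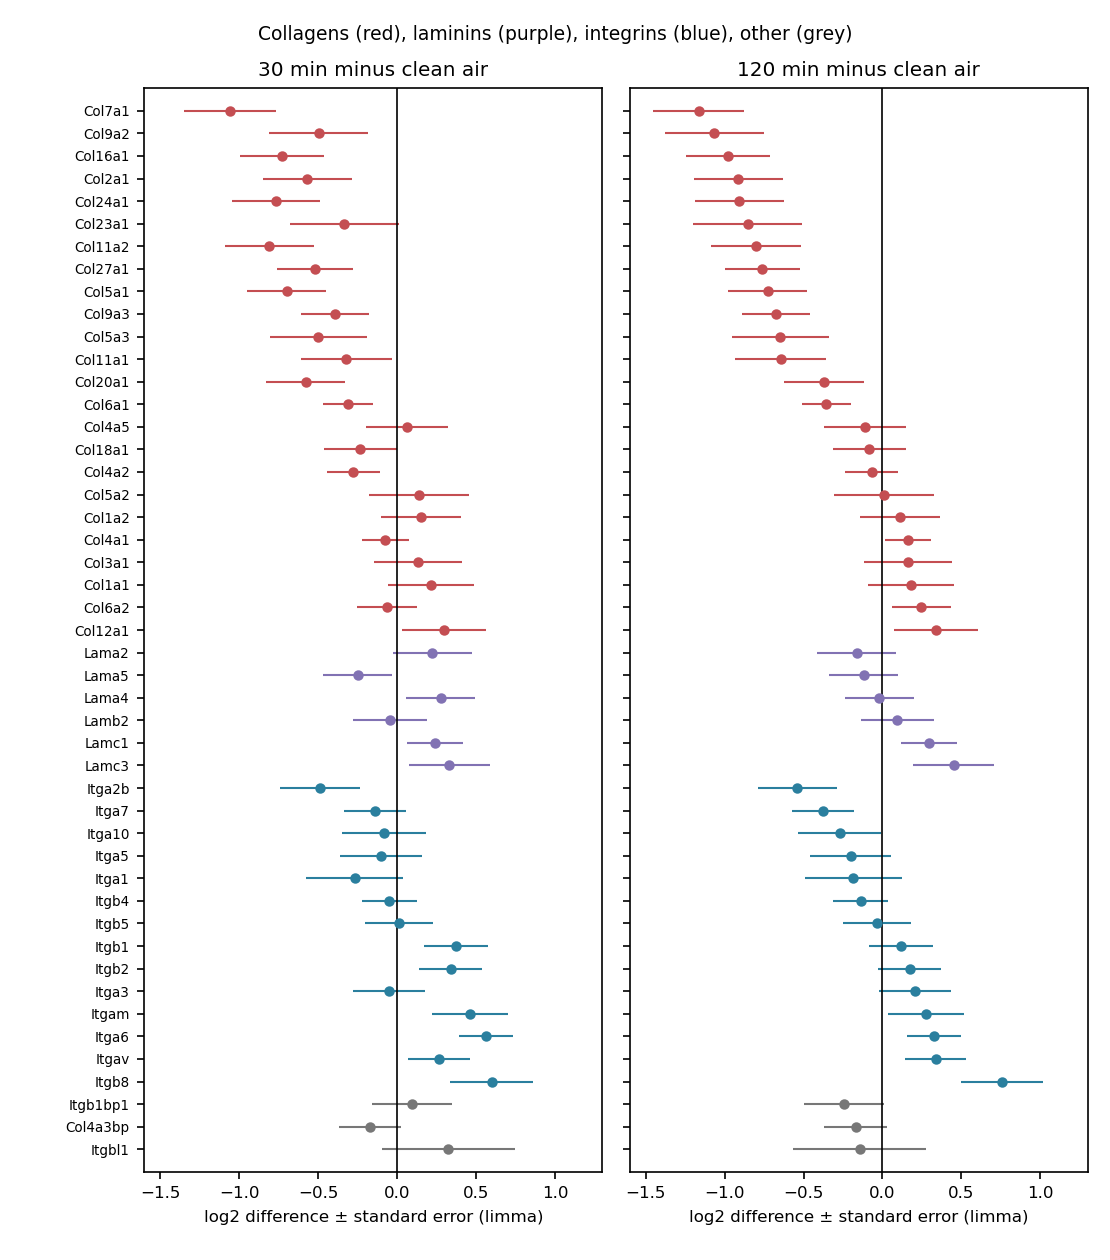
Log2 difference from clean air of 47 of the 48 genes at 30 min (left) and 120 min (right), with the standard error from limma as the bar (3 mice a group); genes are ordered by family and by the difference at 120 min. The collagens run from -1.16 for Col7a1 to 0.34 for Col12a1 at 120 min, and none of the 48 passed the adjusted test.

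Col7a1, the chain of the anchoring fibrils that tie basement membranes to the tissue beneath, had the lowest p of the set. Its level was 2.57, 4.13 and 4.74 RPKM in clean air mice 1 to 3, 2.26, 1.03 and 1.46 at 30 min, and 1.52, 1.45 and 1.18 at 120 min. All exposed mice lay below all clean air mice, with 30 min mouse 1 close under clean air mouse 1. The log2 difference was -1.06 ± 0.29 (standard error) at 30 min (limma adjusted p = 0.731) and -1.16 ± 0.29 at 120 min (adjusted p = 0.339). Under the alternative analyses its adjusted p at 120 min ran from 0.162 to 0.703.

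Among the fibrillar collagens, 7 of 11 had a lower mean than in clean air at both times, with medians of -0.50 at 30 min and -0.65 at 120 min, and none was called. Col24a1, a minor fibrillar chain best known from bone, stood at 5.8, 10.87 and 8.98 RPKM in clean air, at 5.04, 4.06 and 4.97 at 30 min, and at 4.93, 5.42 and 2.71 at 120 min. The exposed mice all lay below clean air, the nearest at 5.42 against 5.8 RPKM. Its log2 differences were -0.77 and -0.91. Col2a1, the main collagen of cartilage, was low throughout, at 1.47, 2.2 and 2.29 RPKM in clean air against 1.23, 1.15 and 1.1 at 30 min and 0.51, 1.25 and 0.76 at 120 min, with no overlap. Col27a1, another minor fibrillar chain, had group means of 4.62, 3.03 and 2.55 RPKM in clean air, at 30 min and at 120 min, also with no overlap and also not called.

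Col5a1 and Col11a2 belong to the chains that set the width of fibrils, type V with type I and type XI with type II. Col5a1 was at 6.09, 9.79 and 9.3 RPKM in clean air, 5.65, 3.96 and 5.19 at 30 min and 4.12, 6.55 and 4.0 at 120 min, so 120 min mouse 2 overlapped clean air mouse 1. Col11a2 was at 4.28, 7.46 and 8.04 RPKM in clean air, 4.33, 2.95 and 3.13 at 30 min and 4.38, 3.86 and 2.4 at 120 min. Here clean air mouse 1 sat inside the exposed range and the difference rested on clean air mice 2 and 3. The log2 differences at 30 and 120 min were -0.70 and -0.73 for Col5a1 and -0.81 and -0.80 for Col11a2. Col11a1 and Col5a3 had differences of -0.65 and -0.65 at 120 min, and Col5a2 one of 0.01.

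The collagen I and III chains of ordinary connective tissue did not share that direction. Col1a1 was at 12.01, 7.82 and 8.42 RPKM in clean air, 12.05, 10.6 and 9.91 at 30 min, and 6.58, 12.22 and 14.53 at 120 min. The lowest and the highest of the 9 values both came from the 120 min group. The log2 differences from clean air were 0.21 ± 0.27 and 0.18 for Col1a1, 0.15 and 0.11 for its partner chain Col1a2, and 0.13 and 0.16 for Col3a1 of reticular fibres. The standard errors of these differences, 0.27, 0.26 and 0.28 for the 3 genes, were larger than the differences themselves.

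Of the 5 FACIT collagens, 4 had lower means than clean air at both times, Col12a1 being the exception at 0.30 and 0.34. Col16a1, which links fibrils in several connective tissues, was at 14.5, 18.01 and 16.81 RPKM in clean air, 8.52, 9.17 and 11.65 at 30 min, and 7.25, 12.84 and 5.6 at 120 min. No exposed mouse reached the lowest clean air mouse. The log2 difference was -0.73 ± 0.26 at 30 min (limma adjusted p = 0.79) and -0.98 ± 0.26 at 120 min (adjusted p = 0.339). Over the alternative analyses the latter ran from -1.30 to -0.73, with adjusted p from 0.107 to 0.703, and 0.107 was the lowest adjusted p of any of the 48 genes under any alternative.

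Col9a2 and Col9a3 encode chains of collagen IX, which coats the type II fibrils of cartilage and the eye. Col9a2 was at 12.12, 16.93 and 13.35 RPKM in clean air, 12.61, 7.79 and 9.47 at 30 min, and 7.5, 9.74 and 3.57 at 120 min. At 30 min mouse 1 overlapped clean air, and at 120 min no mouse did. Col9a3 went from a mean of 9.56 ± 1.66 (SD, n = 3) RPKM in clean air to 7.13 at 30 min and 5.83 at 120 min. The log2 differences at 120 min were -1.06 for Col9a2 and -0.68 for Col9a3. Col20a1, a less studied FACIT chain, had its larger difference at 30 min, -0.58, against -0.37 at 120 min.

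Col6a1 was the most abundant chain with a lower mean after odor. It was at 85.08, 76.55 and 90.58 RPKM in clean air, at 74.77, 58.14 and 71.11 at 30 min and at 73.58, 60.51 and 63.04 at 120 min. All exposed mice lay below all clean air mice, the nearest pair 74.77 and 76.55 RPKM. The log2 differences were -0.31 ± 0.16 and -0.36 ± 0.16, with limma adjusted p of 0.832 and 0.505. Its partner chain Col6a2 had differences of -0.06 and 0.25, and at 120 min each of its mice, at 9.28, 9.25 and 13.28 RPKM, lay above every 30 min mouse. Col23a1, a transmembrane collagen, spread widely in each group, from 15.49 to 33.23 RPKM in clean air and from 7.06 to 18.83 at 120 min, around a log2 difference of -0.85.

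The collagen IV chains of the basement membrane itself stayed within a narrow band. Col4a1 was at 18.9, 21.32 and 22.64 RPKM in clean air, 21.64, 18.86 and 19.09 at 30 min and 21.53, 25.12 and 23.83 at 120 min. The 3 groups overlapped, and the log2 differences from clean air were -0.07 ± 0.15 and 0.16 ± 0.15. Col4a2 differed by -0.28 and -0.07, and Col4a5, a chain of a more restricted network, by 0.07 and -0.11. Col18a1, the basement membrane collagen from which endostatin is cut, differed by -0.23 and -0.09, with means of 4.49, 3.75 and 4.24 RPKM.

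**Figure D3:**
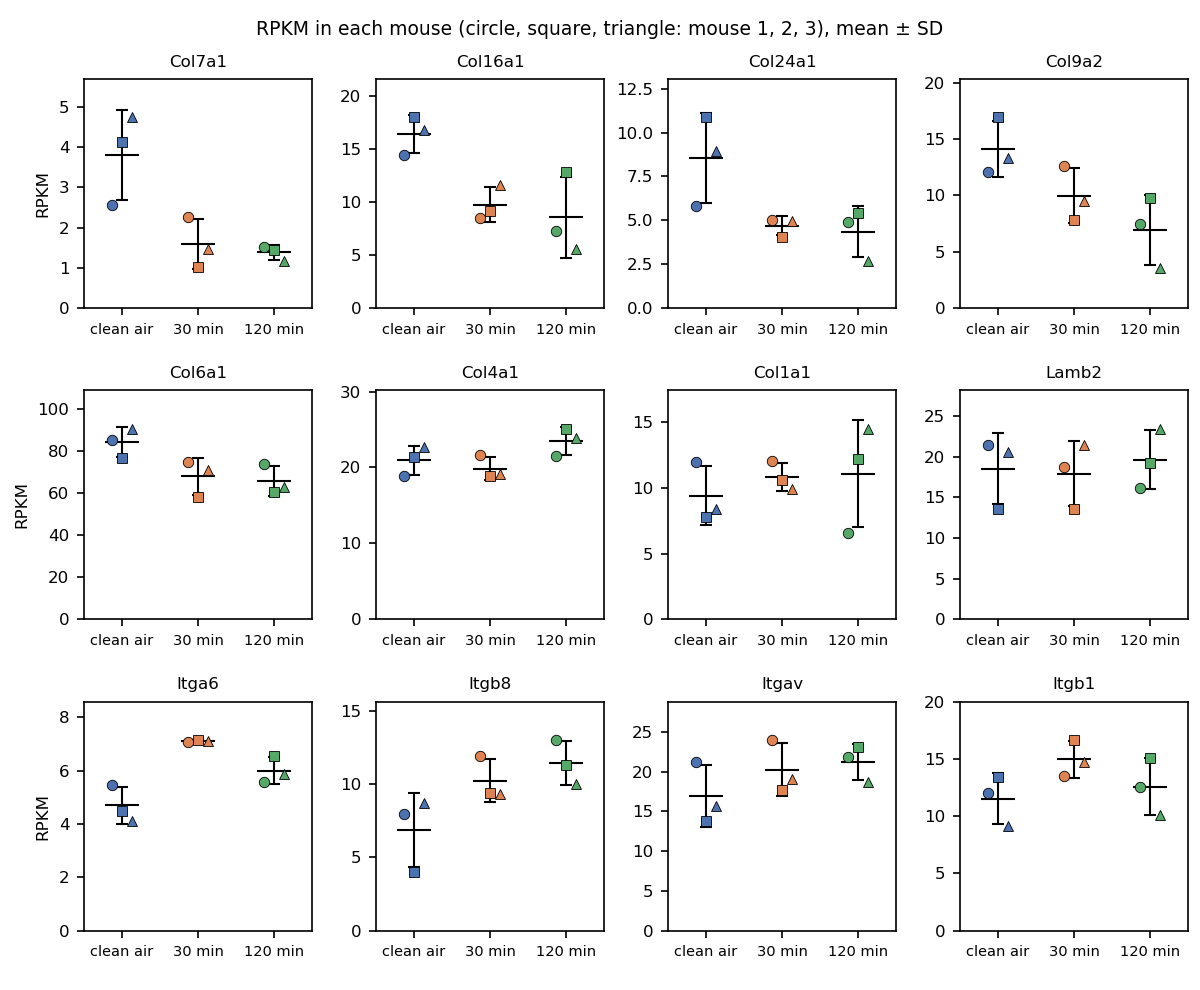
RPKM of 12 collagen, laminin and integrin genes in each mouse (circle, square and triangle for mouse 1, 2 and 3), with the mean and SD of 3 mice as the black bar; the y axis of each panel starts at 0. Col7a1, Col16a1, Col24a1 and Col6a1 lie lower in all exposed mice, Itga6 and Itgb8 higher, and Col4a1, Col1a1 and Lamb2 overlap between groups.

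No laminin chain reached an unadjusted p of 0.05 in the original limma fit in any of the 3 comparisons. Lamb2, the beta chain of vessel and synaptic laminins, was at 21.43, 13.53 and 20.65 RPKM in clean air, 18.79, 13.62 and 21.41 at 30 min and 16.19, 19.3 and 23.48 at 120 min, with the groups fully overlapping. Lamc1, the gamma chain of most laminins, had means of 8.89, 10.45 and 10.87 RPKM and log2 differences of 0.24 and 0.30. Lamc3, a gamma chain best known from cortex and retina, had the largest laminin difference, 0.33 at 30 min and 0.45 at 120 min.

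The laminin alpha chains of vessels had low levels. Lama5 of mature endothelium had a mean of 4.69 RPKM, Lama2 of mural and glial basement membranes 3.27 and Lama4 of endothelium 2.77. Lama4 was at 2.64, 3.02 and 2.07 RPKM in clean air, 3.15, 3.17 and 3.27 at 30 min and 1.99, 2.98 and 2.65 at 120 min. The 30 min mice lay above all others, the nearest pair at 3.15 and 3.02 RPKM, and the log2 differences of 30 min from clean air and of 120 min from 30 min were 0.28 and -0.30. Lama2 had the same shape, 0.22 and -0.39, with overlapping groups.

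Among the integrins, 2 genes reached an unadjusted p under 0.05 at 30 min or 120 min against clean air, both higher after odor. With the exposed groups pooled, Itga2b also did, in the lower direction. Itga6, the alpha subunit of the main laminin receptors, was at 5.46, 4.5 and 4.12 RPKM in clean air, 7.08, 7.15 and 7.12 at 30 min and 5.56, 6.56 and 5.88 at 120 min. The 30 min mice were nearly equal and lay above every mouse of the other groups, and the lowest 120 min mouse was just above the highest clean air mouse. The log2 difference was 0.56 ± 0.17 at 30 min (limma adjusted p = 0.743) and 0.33 ± 0.17 at 120 min (adjusted p = 0.586). The other laminin-binding alpha subunits did not follow, with Itga7 of smooth muscle at -0.14 and -0.38 and Itga3 at -0.05 and 0.21.

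Itgb8, the glial and neural partner of Itgav that activates latent TGF-beta, was at 7.96, 3.97 and 8.67 RPKM in clean air, 11.9, 9.4 and 9.33 at 30 min and 13.01, 11.27 and 10.03 at 120 min. Every exposed mouse lay above clean air, and clean air mouse 2 stood far below the other two. The log2 differences were 0.60 ± 0.26 and 0.76 ± 0.26, and over the alternative analyses they ran from 0.27 to 0.79 and from 0.43 to 0.95. The summed level of 7 astrocyte markers was also lowest in clean air mouse 2, at 1584, 1046 and 1232 RPKM in clean air, and ran from 1382 to 1594 at 30 min and from 1294 to 1754 at 120 min. Of these 7 markers, 6 and 5 had a higher mean than in clean air, with medians of 0.29 and 0.21. Among them the glutamate transporter gene Slc1a2 stood at 24.01 RPKM in that mouse against 101.09 and 92.62 in clean air mice 1 and 3, and the part of astrocytes in the Itgb8 values was not tested. Itgav differed by 0.27 and 0.34, with clean air mouse 1 at 21.24 RPKM inside the exposed range, and Itgb5, its other partner, by 0.01 and -0.04.

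Itgb1, the beta subunit of most matrix receptors, was at 12.07, 13.48 and 9.13 RPKM in clean air, 13.51, 16.7 and 14.76 at 30 min and 12.58, 15.11 and 10.09 at 120 min. The lowest 30 min mouse was just above the highest clean air mouse, and the log2 differences were 0.37 ± 0.20 and 0.12. Itgam and Itgb2 form complement receptor 3 of microglia and other myeloid cells. Itgb2 was at 2.05, 1.98 and 1.89 RPKM in clean air, 2.64, 2.6 and 2.65 at 30 min and 2.1, 2.14 and 2.65 at 120 min, and Itgam differed by 0.46 and 0.27. Both subunits were thus higher at 30 min in every mouse than in clean air, by values that did not pass adjustment. The summed microglia and macrophage markers ran from 218.8 to 279.4 RPKM in clean air and from 231.3 to 253.1 at 30 min. The part of these cells in the Itgam and Itgb2 values was not tested.

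The remaining integrins had low levels. Itga2b, which platelets carry, had means of 1.73, 1.11 and 1.04 RPKM and log2 differences of -0.49 and -0.54, with all exposed mice below clean air. The collagen receptors Itga1 and Itga10 differed by -0.27 and -0.18 and by -0.08 and -0.27, and the fibronectin receptor Itga5 by -0.10 and -0.20. None of the 3 rows that only match by name reached an unadjusted p of 0.05 in these comparisons: Col4a3bp differed by -0.17 at both times, Itgb1bp1 by 0.10 and -0.24, and Itgbl1 by 0.33 and -0.15.

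The spread between mice of 1 group was as wide in these genes as in the rest of the table. The SD within groups on the log2(RPKM + 0.5) scale had a median of 0.27 over the 48 genes and of 0.279 over all tested genes. Collagens had a median SD of 0.322, laminins of 0.244 and integrins of 0.231. The largest SDs were those of Itgbl1 at 0.565, Col23a1 at 0.522, Col9a2 at 0.463 and Col5a2 at 0.44, followed by Col24a1 and Col1a1 at 0.384 each, Col11a2 at 0.38 and Col5a3 at 0.371. The smallest were those of Itgb2 at 0.093, Col4a1 at 0.116, Itga6 at 0.126, Col6a1 at 0.156 and the laminin receptor subunit Itgb4 at 0.158.

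At the median, counting error was a small share of that spread. From the estimated depths and transcript lengths it came to a median SD of 0.0795, from 0.023 for Col6a1 to 0.251 for Itgbl1, whose lowest value rested on about 7 reads. The observed SD was above it in 45 of the 48 genes. These intervals cover counting error only and use the reference transcript lengths.

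The range of the 3 group means had a median of 0.339 over the 48 genes, against 0.291 over all genes, and of 0.611 over the collagens. It exceeded 2 within-group SDs in 16 of the 48 genes (33.3%), in 11 of the 24 collagens and 5 of the 14 integrins, and in 13.6% of all tested genes. Those integrins include Itgb2 and Itga2b, whose SD lay under the estimate for counting error. No laminin reached 2 SDs. At the other end, Itgb5 with a range of 0.05 and an SD of 0.28, and Col5a2 with 0.14 and 0.44, varied more between mice of a group than between groups.

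**Figure D4:**
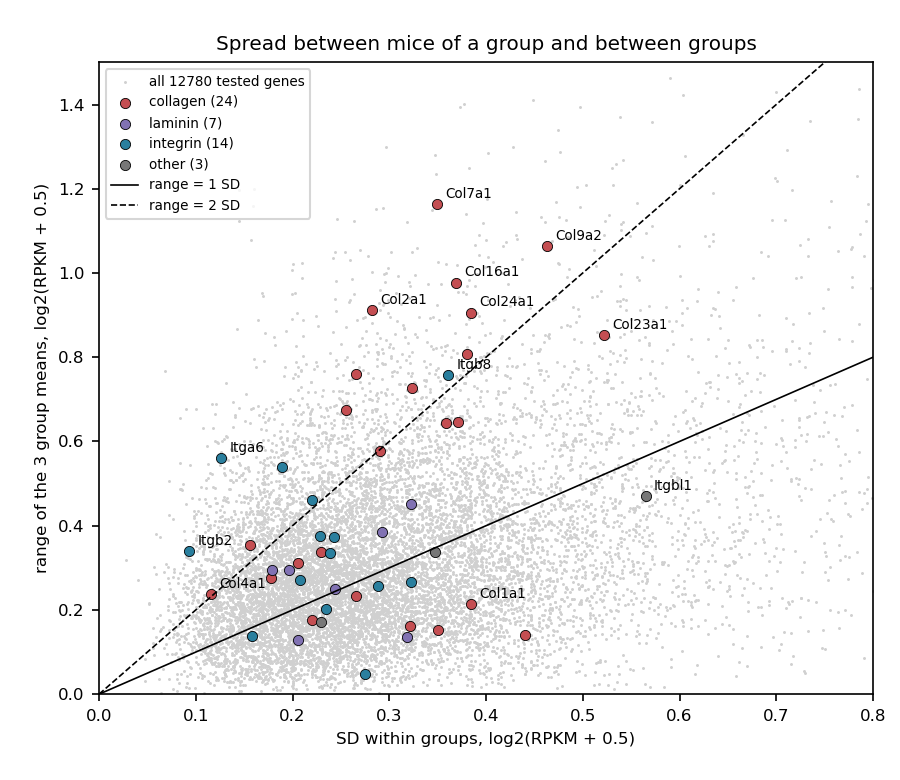
SD within groups (x axis) against the range of the 3 group means (y axis), both on the log2(RPKM + 0.5) scale, for the 48 genes by family and for all 12780 tested genes in grey, of which 441 lie outside the axes. Lines mark a range of 1 SD and of 2 SD; 16 of the 48 genes, Col7a1 among them, lie above the second line.

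The same mice often held the extremes. Clean air mouse 1 had the lowest clean air value in 15 of 24 collagens, where 23.3% of all genes had theirs, and in 11 of the 12 collagens that were lower at 120 min. It had the highest clean air value in 9 of 14 integrins, against 37.4% of all genes. Those 12 had been picked by their clean air and 120 min values, which bears on the counts within them. At 120 min, mouse 3 had the lowest value in 10 of the 12 and mouse 2 the highest in 8. Over all 24 collagens, mouse 3 was lowest in 11, as was mouse 1, and mouse 2 was highest in 13. Of all 12780 genes, mouse 3 was lowest in 4471 and mouse 2 highest in 4597. At 30 min, mouse 2 had the lowest in 8 of the 12 and mouse 1 the highest in 7. Over the 24 collagens these counts were 14 and 14, and over all genes 4621 and 4766. Clean air mouse 1 and 120 min mouse 3 were the shallowest libraries of their groups, while 30 min mouse 1 was the shallowest and mouse 2 the deepest of theirs, and the part of depth in these values was not tested.

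Chains that pair in 1 molecule, and Col1a1 with Col3a1, which form separate molecules in the same fibrils, were compared by the deviation of each of the 9 mice from its group mean. The deviations sum to 0 within each group. For 2 of the 9 pairs the relation passed. Pairs of other genes were not run, so a pass does not show a link particular to partner chains. The test shuffles the mice of each group separately. It takes no account of the likeness of same-numbered mice across groups, described at the end, so its p-values may be too small. Col1a1 and Col1a2, the chains of collagen I, had Pearson's r = 0.945 and Spearman's rho = 0.983, each with p = 0.00463 in a two-sided exact permutation test within groups, the smallest p that its 216 arrangements can give, and adjusted p = 0.0208 over the 9 pairs. Without the 2 mice farthest from the median of Col1a1, r was 0.989. Col4a1 and Col4a2, the chains whose promoters are printed above, had r = 0.823 and rho = 0.9, with the same exact permutation p of 0.00463 and adjusted p of 0.0208, and r = 0.898 without the 2 farthest mice.

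The other 7 pairs did not pass the exact permutation test. Col1a1 with Col3a1 had r = 0.864 (rho = 0.867, permutation p = 0.0694 and 0.0787, adjusted p = 0.208 and 0.236), falling to 0.668 without the 2 farthest mice. Itgav with Itgb8 had r = 0.685 and rho = 0.667 (permutation p = 0.199 and 0.157), Itgam with Itgb2 r = 0.538 and rho = 0.583 (0.157 and 0.181), Itga6 with Itgb1 r = 0.515 and rho = 0.533 (0.31 and 0.292), and Lamb2 with Lamc1 r = 0.408 and rho = 0.133 (0.5 and 0.792). Lama4 with Lamc1 had r = 0.11 and rho = 0.15 (0.884 and 0.824), and Col6a1 with Col6a2 r = 0.0405 and rho = 0.0833 (0.94 and 0.861). The adjusted p of these 6 ran from 0.325 to 0.94. Without the 2 farthest mice r was 0.629, 0.739, 0.382, 0.16, -0.291 and -0.221 in that order. Leaving out any 1 mouse left r of Col1a1 with Col1a2 between 0.938 and 0.971 and of Col4a1 with Col4a2 between 0.754 and 0.917, at adjusted p of 0.0625 or more, where the exact permutation test on 8 mice has too few arrangements to pass.

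**Figure D5:**
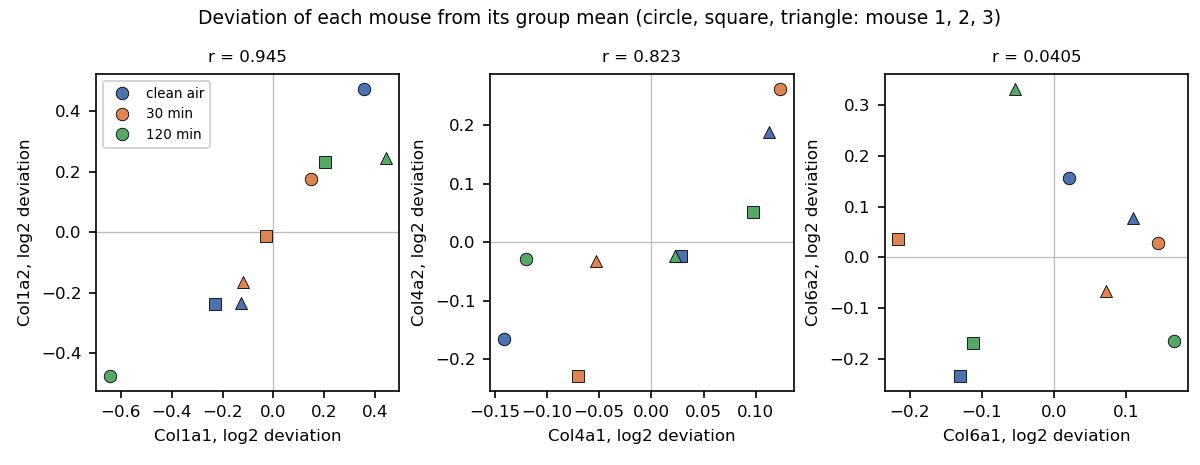
Deviation of each of the 9 mice from its group mean, on the log2(RPKM + 0.5) scale, for 3 pairs of chains of 1 collagen (colour: group; circle, square and triangle: mouse 1, 2 and 3). Col1a1 with Col1a2 (r = 0.945) and Col4a1 with Col4a2 (r = 0.823) rise together, and Col6a1 with Col6a2 (r = 0.0405) do not.

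Markers of connective tissue differed between mice as collagen I did. The sum of 12 fibroblast and meningeal markers, most of it from the prostaglandin D synthase gene Ptgds that oligodendrocytes also express, was 3793, 2687 and 2149 RPKM in clean air, 3421, 2937 and 3159 at 30 min and 2332, 4046 and 4022 at 120 min. Its low 120 min mouse 1 was also the lowest of the 9 for Col1a1, and the 4 mice with the highest sums were the 4 with the highest Col1a1. By group the sum ran from 2149 to 3793, from 2937 to 3421 and from 2332 to 4046 RPKM, and 11 of the 12 markers were tested, Lum being under 1 RPKM. The part of the amount of meninges in the sample in these values was not tested.

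Most vessel markers had higher means after odor, the direction opposite to the lower collagens. Over all tested genes 61.8% had a higher mean at 30 min and 53.9% at 120 min, the background for the counts of this and the next lists. Of 12 endothelial markers 11 had a higher mean at 30 min and 10 at 120 min, with medians of 0.25 and 0.27, and their sum ran from 199.4 to 218.2 RPKM in clean air, from 182.2 to 242.0 at 30 min and from 223.1 to 276.8 at 120 min. Of 9 tested pericyte and smooth muscle markers 9 and 8 had a higher mean, with sums of 115.8 to 216.6, 156.4 to 205.1 and 158.1 to 184.9 RPKM. The fibroblast and meningeal list had 11 and 10 of 11 higher. None of these markers passed the adjusted test in limma. By group mean only, the 7 olfactory ensheathing cell markers went with the lower collagens in direction: 5 had a lower mean at 30 min and 7 at 120 min, with medians of -0.21 and -0.09, 1 of them at an unadjusted p under 0.05 in limma at 120 min. Their sum was 500.0, 615.7 and 284.7 RPKM in clean air mice 1 to 3. It ran from 402.5 to 535.7 at 30 min and from 325.3 to 501.3 at 120 min. The lowest clean air sum was that of mouse 3. Clean air mouse 1 was the lowest of its group in 11 of the 12 collagens lower at 120 min, which had been picked by their clean air and 120 min values. The red cell gene Hbb-b1 spread from 36.96 to 141.7 RPKM in clean air, from 147.92 to 192.91 at 30 min and from 45.4 to 186.89 at 120 min, with Hba-a1 and Hba-a2 listed at 0. The part of any of these cells in the collagen values was not tested.

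The genes around these proteins were read from 5 lists, and no gene of them was called in limma in any of the 3 comparisons. Enzymes and chaperones that make and crosslink collagen (19 tested) had medians of 0.05 at 30 min and 0.04 at 120 min, with 13 and 11 higher, and the most abundant were the prolyl isomerase Ppib at 92.9 RPKM and P4hb, a subunit of prolyl 4-hydroxylase, at 53.4. Other basement membrane and matrix proteins (24 tested) had 18 higher at 30 min and 21 at 120 min, with medians of 0.16 and 0.22. Their most abundant genes were Sparc, a collagen-binding matrix protein, at 399.8 RPKM with differences of 0.27 and 0.18, and vitronectin, Vtn, at 118.4 RPKM with differences of 0.17 and 0.01. Some partners went with the lower collagens, chosen after their values were seen. Agrn, the basement membrane proteoglycan agrin, was at 48.02, 51.47 and 45.36 RPKM in clean air, 38.0, 33.84 and 36.81 at 30 min and 36.24, 33.44 and 28.44 at 120 min, with no overlap and differences of -0.41 and -0.56 (limma adjusted p = 0.339 at 120 min). Bmp1, which trims procollagens, differed by -0.41 and -0.45 and the prolyl 3-hydroxylase Lepre1 by -0.28 and -0.48. In the other direction at 120 min stood fibronectin, Fn1, at 0.71 and the tenascins Tnc at 0.76 and Tnr at 0.77.

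Proteases of the matrix and their inhibitors (16 tested) had 14 and 12 higher, led by the inhibitor Timp2 at 110.01 RPKM and the membrane protease Mmp24 at 34.8. Adaptors and kinases that act behind integrins (23 tested) had 18 and 19 higher, with medians of 0.13 and 0.20, led by the kinase Ptk2b at 142.4 RPKM and the actin crosslinker Actn4 at 84.4. Other receptors of laminin and collagen (14 tested) had 9 and 9 higher, led by the syndecan Sdc3 at 100.9 RPKM and the adhesion receptor Gpr56, which binds collagen III, at 100.3. The medians of the 5 lists were above 0 at both times and those of the collagens below it, where all tested genes had 0.08 and 0.03, and no gene of either passed the adjusted test.

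Base composition moved with these differences. Across 12132 tested genes with a reference transcript, the log2 difference at 30 min had a Spearman correlation of -0.37 with transcript GC content and at 120 min one of -0.10, a description across genes that are not independent. Across the 48 genes it was -0.61 and -0.43, and their median GC content was 55.9% against 50.4% for all. The 12 collagens lower at 120 min had a median of 59.3% and the other 12 collagens 55.9%. With the GC trend removed from each library, an analysis added after the data were seen, all 12 still had an unadjusted p under 0.05 in limma, with differences from -1.05 to -0.34 where they had been -1.16 to -0.36, and none was called. These 12 had been picked by that p in the same values, and no share over all genes was taken after the removal. The part of base composition in the collagen values was not tested. At 30 min 6 of the 48 genes had an unadjusted p under 0.05 after that removal, where 8 had before: Col16a1 went from an unadjusted p of 0.0192 to 0.0885 in limma. Itgb8 went from 0.0433 to 0.202 at 30 min and from 0.015 to 0.0549 at 120 min, with differences of 0.46 and 0.73. Lamc3 went the other way at 120 min, from an unadjusted p of 0.107 to 0.0433 in limma, with a difference of 0.50. The collagen medians were then -0.28 at 30 min and -0.45 at 120 min. Transcript length also went with the differences across the 12132 genes, with Spearman correlations of 0.24 at 30 min and 0.327 at 120 min. No length trend was removed, and the part of length in the collagen values was not tested.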

How the data were processed

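RNA from olfactory bulbs of 9 mice was sequenced as paired ends, 3 mice a group, and grouped by the sample titles. Per the submitters' processing notes the reads were aligned with Bowtie to mm9. The aligner's version, the gene annotation, the counting and the strand rule were not given in the sources used here. Levels of 27497 genes were deposited as RPKM by the authors.

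The 12780 genes averaging 1 RPKM or more over 9 mice were tested in limma 3.58.1 (R 4.3.3) on log2(RPKM + 0.5), with 1 fit of 3 groups, a mean-variance trend and Benjamini-Hochberg adjustment over all tested genes. Fold changes are on that scale, which understates the change of low genes. The fit had no replicate block. Standard errors are limma's moderated ones; SD within groups pools the 3 groups. Partner chains were tested by exact permutation within groups (scipy 1.17.1). The limma fit and the pair test were tested on simulated data with known changes.

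Depth was estimated from the steps between low RPKM values (72 to 152 a library) of RNAs under 200 nt with 1 GENCODE transcript. With lengths taken 34 nt shorter, a choice made from the values, 82.67% to 95.83% of them were whole reads within 0.05, against 31.08% to 37.0% at full length. Lengths and GC content come from a GRCm38 annotation, matched by gene ID, and not from the authors' build, so read counts are approximate. All 48 genes matched.

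Members and gene lists were chosen with earlier results of these data known. Genes named are the 6 with the smallest p in each comparison, the 12 highest by level, the 8 largest and 5 smallest SDs, the 3 rows either side of the level filter and a panel of well-known chains, and of each other list the 2 highest by level. Others, such as Itgb8, Col9a3, Slc1a2 and Agrn, were named after their values were seen. Protein sequences were not used here. The values of 1 gene of the set are not reported here. Alternatives were pseudocounts of 0.1 and 1, no level filter, median scaling, a replicate block, 2 groups in the fit, no trend and each mouse left out. The GC trend removal and the comparison of both exposed groups together were added after the data were seen.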

Additional observations from a re-analysis of the deposited data

How the results depend on the processing

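The number of collagens, laminins and integrins called was 0 in each comparison in the original analysis and under all 17 alternatives (16 for the comparison over the 3 groups and for the exposed groups together), with 3 to 13 genes at an unadjusted p under 0.05 at 30 min, 8 to 17 at 120 min and 0 to 4 between the exposed groups. No count over all genes at that unadjusted p was taken under the alternatives. The 13 at 30 min came from limma without a trend, against 8 with it. Over the 3 groups the 11 such genes became 6 with the GC trend removed. Among all genes the 11 called at 120 min became 2 with only the 2 groups in the fit. Leaving out 1 mouse at a time gave 0 to 11 called genes at 120 min, and 9 to 18 in the exposed groups together against 16. Signs changed under some alternative for 48 of 144 single-gene differences, 97 values of 2448, none of them called and none over 0.21 in size originally. The 2 partner pairs became 0 in each analysis without 1 mouse (range 0 to 0), where 2 pairs alone at the smallest p of the test on 8 mice do not pass adjustment. Titles number the mice 1 to 3 in each group, while the sample descriptions carry other codes (1, 2 and 5 in clean air, 1, 3 and 4 at 30 min and at 120 min), and no label gives shared litters or days. Deviations of same-numbered mice correlated over 0.1 in 7 of 9 pairs, with 0.09 and 0.081 for the others, and each of the 9 libraries correlated best with its own number, a hint from the data and not the design. Estimated depth was alike across groups for mouse 1 (8800000 to 10500000) and mouse 2 (22200000 to 28800000), and unlike for mouse 3 (7140000 to 29900000). The part of depth in these correlations was not tested. With the replicate block 0 members were called, and 22 genes in all at 30 min against 18. Depth limits the low genes: Itgbl1 rested on about 7 reads in 120 min mouse 3.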
